A study of Kluyveromyces lactis with 6 samples.

Results

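The genes described here lie 11 to 30 genes inward from each chromosome end of the budding yeast *Kluyveromyces lactis*, the zone just inside the terminal genes. Gene ids of the expression files were sorted by chromosome letter and number, which also put every gene in coordinate order in the RefSeq table, and positions were counted from both ends of the 6 chromosomes. These positions hold 240 genes on 12 arms. KLLA0B00451g and KLLA0B14729g were left out by the rule, and another gene it names, KLLA0E24861g, stands at position 10, so 238 of 5076 genes remained. The rule uses positions and these gene names and no expression value, but it was set with earlier results of these data known. Both genes left out of these positions were higher without *SIR2* (log2 change 1.24 for KLLA0B00451g and 2.05 for KLLA0B14729g).

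RNA was sequenced from 3 strains, with 2 technical libraries each: the wild type LRY2835 (WT), and LRY2849 and LRY2850, which both lack *SIR2* (sir2Δ) and are called isolates 1 and 2 here. All 3 strains are *MATa* and lack both silent mating cassettes, *HML* and *HMR*. Growth was at 30 °C in rich medium (2% glucose and 2% peptone with 1% yeast extract), and 10 OD of each strain was collected in early log phase. WT is 1 culture, so genotype, strain and culture cannot be told apart, and the p-values assume that WT would vary as the isolates do. In a bulk culture, a rise in every cell and a rise in more of the cells cannot be told apart either. *SIR2* itself (KLLA0F14663g, an assignment from general knowledge of the species) was at 66.9 and 64.9 FPKM in WT and between 0.0503 and 0.108 FPKM in the 4 deletion libraries. FPKM divides the fragments assigned to a gene by its length and by the library's total. The number of reads behind a value is unknown.

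Sir2 removes acetyl groups from histones in a reaction that consumes NAD+. In *Saccharomyces cerevisiae* it acts with Sir3 and Sir4 to silence the mating cassettes and genes next to telomeres, spreading inward along nucleosomes. In *K. lactis* it is also known to act with the DNA-binding repressor Sum1, at genes of mating and sporulation that are not near telomeres. The question for the genes at positions 11 to 30 is how far inward from each end expression differs once *SIR2* is gone.

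Of the 238 genes, 230 averaged 1 FPKM or more across the strains and were tested. The other 8 were listed at 0 in every library. Among the 230, 64 (27.8%) were higher in sir2Δ than in WT and 45 (19.6%) were lower (limma, adjusted p under 0.05 over all tested genes). Among all 5021 tested genes the shares were 20.2% higher and 19.9% lower. The median log2 change of the 230 genes was 0.06, beside −0.06 over all tested genes. Rises of at least 2-fold were called for 39 of the 230 (17.0%, beside 9.10% of all tested genes), and falls of at least 2-fold for 18 (beside 6.13%). Every sir2Δ library lay above both WT libraries in 98 of the 230 genes (beside 34.0% of all tested genes) and below both in 82 (beside 41.4%). Of the 121 genes not called, 71 also had groups that did not overlap, so separation of the libraries alone marks little. A single tested gene was under 1 FPKM in WT, so few genes passed the filter through their sir2Δ level alone.

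Within the zone, the share of rises was highest at its outermost 5 positions. Among tested genes it was higher still in the 10 terminal positions (46 of 84, 54.8%). However, 36 of the 120 terminal genes were untested, beside 5 of 58 genes in the band from 11 to 15. Counted over listed genes, rises made up 46 of 120 terminal genes, beside 24 of 58 in that band. The higher terminal share thus holds for tested genes only, and a rise in sir2Δ helps a gene pass the filter. At positions 11 to 15, 24 of 53 tested genes were higher (45.3%) and 1 was lower (1.89%), with a median log2 change of 0.46. At positions 16 to 20 the shares were 21.1% higher and 24.6% lower of 57 genes (median 0.04). At 21 to 25 they were 21.7% and 25% of 60 (median −0.14), and at 26 to 30 they were 25% and 25% of 60 (median −0.03). Rises of at least 2-fold made up 32.1%, 8.77%, 11.7% and 16.7% of tested genes in the 4 bands, going inward. Beyond the zone, 18.3% were higher at positions 31 to 40, 17.5% at 41 to 60 and 19.5% beyond 100. Leaving out each arm in turn kept the share at 11 to 15 between 41.7% and 48.0%, and that at 16 to 20 between 17.3% and 23.1%. The 24 rises stood on 11 of the 12 arms, and 12 of them on C right, D left and D right. Without these 3 arms, which were picked once their values were known, the shares were 31.6% at 11 to 15 and 21.4% at 16 to 20. With positions counted over tested genes alone, the share higher at 11 to 15 was lower and nearer the 20.2% of all tested genes. The 5-gene bands were set with results of these data known, and the difference between bands was not tested.

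**Figure D1:**
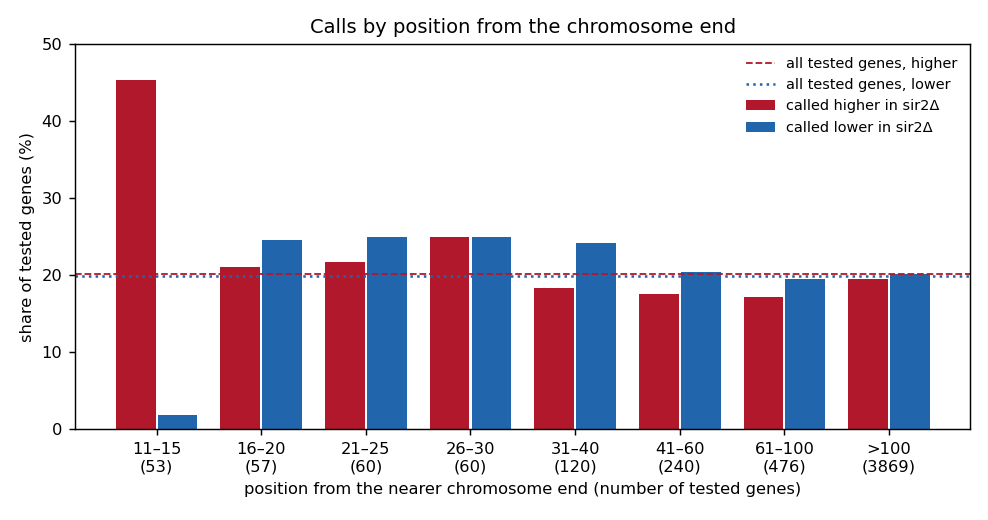
Share of tested genes called higher (red) and lower (blue) in sir2Δ by position from the nearer chromosome end, in percent, with the number of tested genes under each band and the shares over all tested genes as lines. The band at positions 11 to 15 stands at 45.3% higher and 1.89% lower, and the bands from 16 to 30 lie between 21.1% and 25%.

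Pooled over the arms, there was no step at the boundary with the terminal genes. At position 10, 5 of 11 tested genes were higher, beside 6 of 10 at position 11 and 6 of 11 at position 12. On B right and E right, however, a terminal block of rises ended near this boundary, as described below. At the inner limit, 1 of 12 was higher at position 30 and 3 of 12 at position 31. On single arms the change did not reach inward as an unbroken block. The stretch of consecutive tested genes called higher from position 11 inward held 3 genes on D right, 2 on A left, C right and D left, 1 on C left, E left and F left, and none on the other 5 arms. No stretch passed position 15. Rises of at least 2-fold were called at positions 11 to 20 on 11 arms and at 21 to 30 on 8 arms. Uncalled or lower genes stood between them. Such rises were 22 of 110 tested genes at 11 to 20 and 17 of 120 at 21 to 30. Over all tested genes the share was 9.10%. How many arms would hold a rise of this size at that share was not tested.

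**Figure D2:**
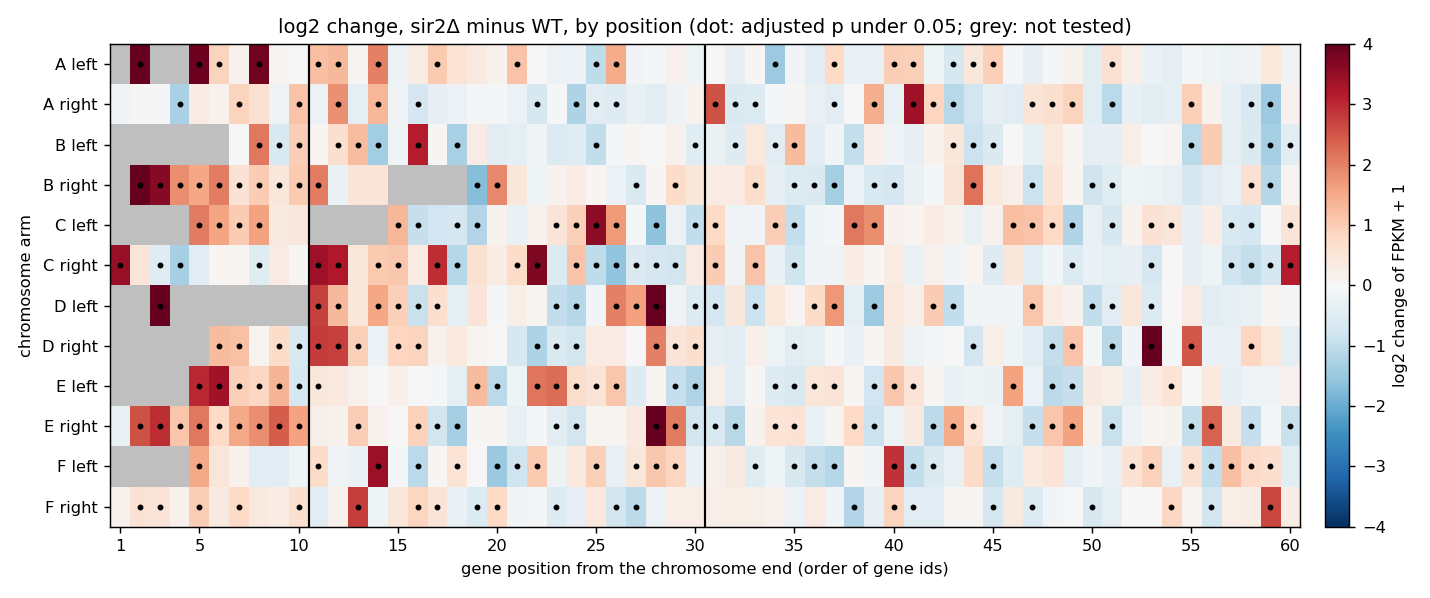
Log2 change (sir2Δ minus WT) of each gene at positions 1 to 60 on the 12 arms, where colours saturate at a size of 4, dots mark adjusted p under 0.05, grey marks untested genes and the 2 vertical lines bound positions 11 to 30. The red blocks inside the lines are short and separated by pale or blue genes, and no arm is red from position 11 to 30.

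On the right arm of D, the 3 genes at positions 11 to 13 all rose. KLLA0D19929g was at 23.2 and 21 FPKM in WT, 174 and 163 in isolate 1 and 151 and 155 in isolate 2 (log2 change 2.81, SE 0.15, adjusted p = 5.5e-06). KLLA0D19921g next to it went from 7.0 and 5.58 FPKM to between 42.7 and 52.9 (2.73). In both genes every sir2Δ library lay far above WT, and neither gene was silent in WT. *ATG2*, a lipid transfer protein of autophagosome growth, rose by 0.95 on the log2 scale at position 13. The stretch ended at *LRG1* (−0.25, not called). *ZWF1*, glucose-6-phosphate dehydrogenase, and *NAR1* of cytosolic iron-sulfur cluster assembly rose by 0.86 and 0.88 at positions 15 and 16. A block of falls followed at 22 to 24: *CSL4*, a subunit of the RNA exosome (−1.23, SE 0.16), *ELA1* (−0.59) and *URE2*, a regulator of nitrogen use (−0.74). Rises returned at 28 to 30 with *ATG4*, the protease that processes Atg8, from 21.3 and 19.5 FPKM to between 77.8 and 98.6 (2.01), *SSU72* (0.50) and *GUD1*, guanine deaminase (0.65). The call of *SSU72* was lost without the second library of isolate 1 (adjusted p = 0.0526) or of isolate 2 (0.0566). With no filter on low values, *ELA1*, *SSU72* and *GUD1* were not called (adjusted p between 0.0565 and 0.0744).

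The right arm of C had among the steepest rises of the zone, close to an end where only 1 terminal gene in 10 was called higher. KLLA0C19206g at position 11 stood at 3.88 and 4.30 FPKM in WT, 55.6 and 53.4 in isolate 1 and 48.6 and 52.2 in isolate 2 (3.39, SE 0.18, adjusted p = 5.4e-06). KLLA0C19184g at position 12 went from 1.44 and 1.51 FPKM to between 20.7 and 22.9 (3.19, SE 0.24). The gene just outward, at position 10, was not called, so this pair is not the inner end of a block that starts at the telomere. After KLLA0C19132g (0.45, not called), KLLA0C19107g (1.06), KLLA0C19085g (1.09) and KLLA0C19041g (2.95, SE 0.15) rose at positions 14, 15 and 17, and KLLA0C19019g fell by 1.14 at position 18. At position 22, KLLA0C18931g was at 14.5 and 13.8 FPKM in WT, 123 and 170 in isolate 1 and 263 and 296 in isolate 2 (3.73, SE 0.32, adjusted p = 8.6e-05). Both isolates lay far above WT, and isolate 2 above isolate 1. KLLA0C18887g at position 24, already at 1797 and 1820 FPKM in WT, rose to between 3882 and 4234 (1.15). Directly inside it, 5 neighbours fell: *ESF2* (−1.0) and *NOG2* (−1.58, SE 0.25), both of ribosome assembly, *POP2*, a deadenylase of the Ccr4-Not complex (−0.59), *BRE5*, the partner of a deubiquitinase (−0.68), and *OCA4* (−0.74). This run broke up with no filter on low values, where *ESF2*, *POP2* and *OCA4* were not called (adjusted p between 0.0532 and 0.0804).

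D left rose at positions 11, 12, 14, 15 and 17 and again at 26 to 28. KLLA0D00330g, the outermost, was at 15.8 and 15.7 FPKM in WT, 82.1 and 122 in isolate 1 and 114 and 128 in isolate 2 (2.73). KLLA0D00352g (1.31) and KLLA0D00396g (1.53) followed, then *PEX2*, which acts in peroxisomal protein import (0.95), and *PHR1*, DNA photolyase (0.66). *NUC1*, a mitochondrial nuclease, fell by 0.90 between them. Positions 18 to 22 held no call. *DIM1*, an rRNA dimethylase, and *ACM1*, an inhibitor of the anaphase-promoting complex, fell by 1.00 and 1.14. The inner block was the strongest of the arm: KLLA0D00660g (2.01), KLLA0D00682g (1.65) and KLLA0D00704g (4.06, SE 0.15, adjusted p = 9.8e-07). KLLA0D00704g stood at 61.3 and 64.9 FPKM in WT, 943 and 1113 in isolate 1 and 997 and 1226 in isolate 2, so that all 4 sir2Δ libraries lay far above WT at position 28. It was the second largest rise of the 230 genes with a pseudocount of 1 and the largest with 5 (3.97).

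On the left arm of A the gene at position 10 was not called, and KLLA0A00352g (1.19) and KLLA0A00374g (1.31) rose at positions 11 and 12. KLLA0A00374g went from 420 and 473 FPKM in WT to between 1084 and 1124, so a well-expressed gene is among those next to the end. *UBP7* at position 13 was not called (0.11). *GUT2*, the mitochondrial glycerol-3-phosphate dehydrogenase, was at 120 and 116 FPKM in WT, 384 and 478 in isolate 1 and 492 and 573 in isolate 2 (2.01, SE 0.17). *PCK1*, phosphoenolpyruvate carboxykinase of gluconeogenesis, rose by 1.03 at position 17, KLLA0A00550g by 1.14 at 21 and *ATG32*, the receptor of mitophagy, by 1.5 (SE 0.18) at 26. *SLN1*, an osmosensing histidine kinase, fell by 1.00 beside it. Each of the 6 rises on this arm was at least 2-fold.

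Positions 11 to 14 of C left were listed at 0 in all 6 libraries. Among these genes are *HMLALPHA1* and *HMLALPHA2* of the *HML* cassette, which the labels give as deleted in every strain; KLLA0C00330g and KLLA0C00396g flank them. The first tested gene, *CHA1* at position 15, a catabolic serine and threonine deaminase, was higher at 136 and 145 FPKM in isolate 1 and 90.1 and 112 in isolate 2 than in WT at 50.7 and 43.8 (1.31). The next 4 genes inward held 3 falls: *VAC17* of vacuole inheritance (−0.94), *KRR1* of ribosome assembly (−0.69) and *ADF1* (−1.16). A block of 4 rises stood at positions 23 to 26. Dropping the filter on low values ended the calls of *VAC17* (adjusted p = 0.0731) and of the outermost gene of the block, KLLA0C00616g (0.0835). In it, KLLA0C00671g went from 6.30 and 6.29 FPKM in WT to 85.5 and 78.0 in isolate 1 and 84.1 and 95.3 in isolate 2 (3.57, SE 0.17, adjusted p = 2.6e-06). *KAR4*, a transcription factor of karyogamy, went from 7.99 and 9.06 to between 28.5 and 31.6 (1.71). *SPB1*, an rRNA methyltransferase, was the second largest fall of the zone at position 28, from 36.1 and 40.9 FPKM to 14.5 and 17.4 in isolate 1 and 9.06 and 8.36 in isolate 2 (−1.62, SE 0.31).

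E left was nearly level in its outer positions. KLLA0E00419g at position 11 passed narrowly (0.46, adjusted p = 0.0447) and missed the threshold without WT replicate 2 (0.0712), isolate 1 replicate 2 (0.111) or isolate 2 replicate 1 (0.0627), and with no filter on low values (0.0907). Positions 12 to 18 held no call. *GUT1*, glycerol kinase, rose by 1.28 at position 19, and its neighbour *FPS1*, the glycerol channel of the plasma membrane, fell by 1.09 at position 20. The longest run of rises in the zone followed at positions 22 to 26, deep inside the arm: *ATG10*, an E2-like enzyme of autophagy (2.15), *SDH2*, the iron-sulfur subunit of succinate dehydrogenase (2.25, SE 0.15), *VPS13*, a lipid transfer protein (0.71), *ECM29*, a proteasome factor (0.53), and *UBI4*, polyubiquitin (1.10, SE 0.25). *ATG10* went from 19.1 and 12.6 FPKM in WT to between 68.9 and 79.1, and *SDH2* from 298 and 297 to between 1345 and 1486. *ECM29* lost its call without the second library of isolate 1 (adjusted p = 0.0889). *GRC3* and *RIX7*, both of rRNA maturation, fell by 0.91 and 1.21 at positions 29 and 30. Neither *ECM29* (adjusted p = 0.0834) nor *GRC3* (0.0611) was called with no filter.

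The 8 rises on F left were spread from position 11 to 29. *ALD4*, a mitochondrial aldehyde dehydrogenase, was at 64.8 and 74.8 FPKM in WT, 836 and 879 in isolate 1 and 610 and 703 in isolate 2 (3.41, SE 0.18, adjusted p = 5.6e-06) at position 14, between uncalled genes on both sides. *GPB1* (0.73), KLLA0F00528g (0.54), KLLA0F00638g (1.05) and *CAR1*, arginase (0.95), were the other single rises. At positions 27 to 29 stood *TOA1*, a subunit of the general transcription factor TFIIA (0.45), *SLK19*, a kinetochore protein (1.08, SE 0.16), and KLLA0F00792g (0.87). The call of *TOA1* was lost without the second library of isolate 1 (adjusted p = 0.0989) or of isolate 2 (0.0544). *GDH3*, an NADP-dependent glutamate dehydrogenase, fell from 374 and 384 FPKM to 108 and 138 in isolate 1 and 149 and 149 in isolate 2 (−1.49). Its neighbour *FRE3*, a ferric reductase, fell by 0.80. Of the 8 rises, *GPB1*, KLLA0F00528g, *TOA1* and KLLA0F00792g were not called with no filter on low values (adjusted p between 0.055 and 0.0965), which left 4.

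The 5 arms with no rise at the first tested position were B right, E right, A right, B left and F right. On B right and E right the 9 tested genes directly outward were all called higher, as was the excluded KLLA0B14729g at position 11 of B right, and the first tested genes of the zone were not called. On E right, KLLA0E24817g at position 11 was at 184 and 207 FPKM in WT and between 213 and 262 in sir2Δ (0.24, adjusted p = 0.22), and KLLA0E24795g at position 12 changed by 0.16 (not called). On B right, KLLA0B14707g at position 12 was at 284 and 271 FPKM in WT and between 204 and 281 in sir2Δ (−0.26, not called), and positions 13 and 14 were not called (both 0.53). The 4 genes at positions 15 to 18 of B right, KLLA0B14597g, KLLA0B14575g, KLLA0B14553g and KLLA0B14531g, were listed at 0 in every library. The labels give *HMR* as deleted, but the table used here does not say which ids belong to it.

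Past that gap, KLLA0B14498g at position 19 was the largest fall of the zone. It stood at 310 and 314 FPKM in WT, 76.2 and 94.8 in isolate 1 and 114 and 100 in isolate 2 (−1.70, SE 0.17, adjusted p = 2.1e-04). The next gene, *YHB1*, a flavohemoglobin that detoxifies nitric oxide, went the other way, from 420 and 444 FPKM to 1374 and 1554 in isolate 1 and 1559 and 2111 in isolate 2 (1.91, SE 0.18). *UBA1*, the ubiquitin-activating enzyme, rose by 0.73 at position 29. No other gene of the arm between positions 21 and 30 was higher, and *HOC1*, a mannosyltransferase, fell by 0.57 (adjusted p = 0.0616 with no filter on low values).

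E right held a gene nearly silent in WT far inside the zone. KLLA0E24443g at position 28 was at 0.503 and 0.122 FPKM in WT, 38 and 36.9 in isolate 1 and 37.5 and 45.7 in isolate 2. It entered the test through its sir2Δ level alone, so its values are a description. Its log2 change, 4.96 and the largest of the zone, depended on the pseudocount: it was 6.75 with 0.1 and 3.06 with 5, below KLLA0D00704g, KLLA0C18931g and *ALD4*. KLLA0E24421g beside it went from 7.53 and 7.32 FPKM to between 31.2 and 38.2 (2.09). The genes around the pair, *MSD1* (0.35, not called) and *ECM31* (−0.73), were not silent in WT. *ARL1*, a small GTPase of the Golgi, rose by 0.97 at position 13 and *DAL3* of allantoin use by 0.93 at position 16. *POP7*, a subunit of RNases P and MRP, fell from 83.8 and 93.4 FPKM to between 31.8 and 39.4 (−1.32, SE 0.15).

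A right rose at positions 12 and 14 alone, both at genes of low level among well-expressed neighbours. KLLA0A11792g went from 4.94 and 4.82 FPKM to between 19.0 and 20.5 (1.84), and KLLA0A11748g from 2.97 and 3.51 to between 8.37 and 10.8 (1.32, SE 0.27). The second was not called after quantile normalization (log2 change 0.57, adjusted p = 0.116). *FPR1*, a peptidyl-prolyl isomerase at position 15, was at 3321 and 3315 FPKM in WT and between 2832 and 3248 in sir2Δ (−0.15, not called). Inward of it 5 genes fell, among them *RPC31* of RNA polymerase III (−1.23) and *EAF7* of the NuA4 acetyltransferase (−0.67). None of these 5 falls kept its call throughout: *EAF7*, *INN1*, *RPC31* and *SLM5* lost it with no filter on low values (adjusted p between 0.0532 and 0.0786) and *PGA2* without the second library of isolate 1 (0.168). B left had 2 rises, *BIO3* of biotin synthesis (0.64, adjusted p = 0.118 with no filter on low values) and KLLA0B00517g at position 16. The excluded KLLA0B00451g, at position 13, was also called higher (1.24). KLLA0B00517g was at 13.8 and 11.4 FPKM in WT, 125 and 117 in isolate 1 and 114 and 118 in isolate 2 (3.14, SE 0.15, adjusted p = 3.3e-06). It stood between *ARO5* (−0.16) and *COQ8* (0.04), neither called. KLLA0B00473g (−1.39, SE 0.16) and *PRP43*, a helicase of splicing and ribosome assembly (−1.29, SE 0.15), fell within 2 positions on either side of it. No gene of B left or A right rose at positions 21 to 30.

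On F right, *ATG45* at position 13 went from 74.2 and 77.5 FPKM in WT to 568 and 494 in isolate 1 and 517 and 528 in isolate 2 (2.78, SE 0.14, adjusted p = 4.4e-06). The other 3 rises of the arm were smaller: *CDC26* of the anaphase-promoting complex (0.85), KLLA0F27709g (0.51) and *JHD1*, a histone demethylase (0.81), the last at position 20. KLLA0F27709g lost its call without the second library of isolate 1 (adjusted p = 0.0672) and with no filter on low values (0.0565). Inward of *JHD1* the arm had 3 falls and no rise, with *HIS1*, the first enzyme of histidine synthesis, at 457 and 469 FPKM in WT and between 218 and 238 in sir2Δ (−1.05).

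**Figure D3:**
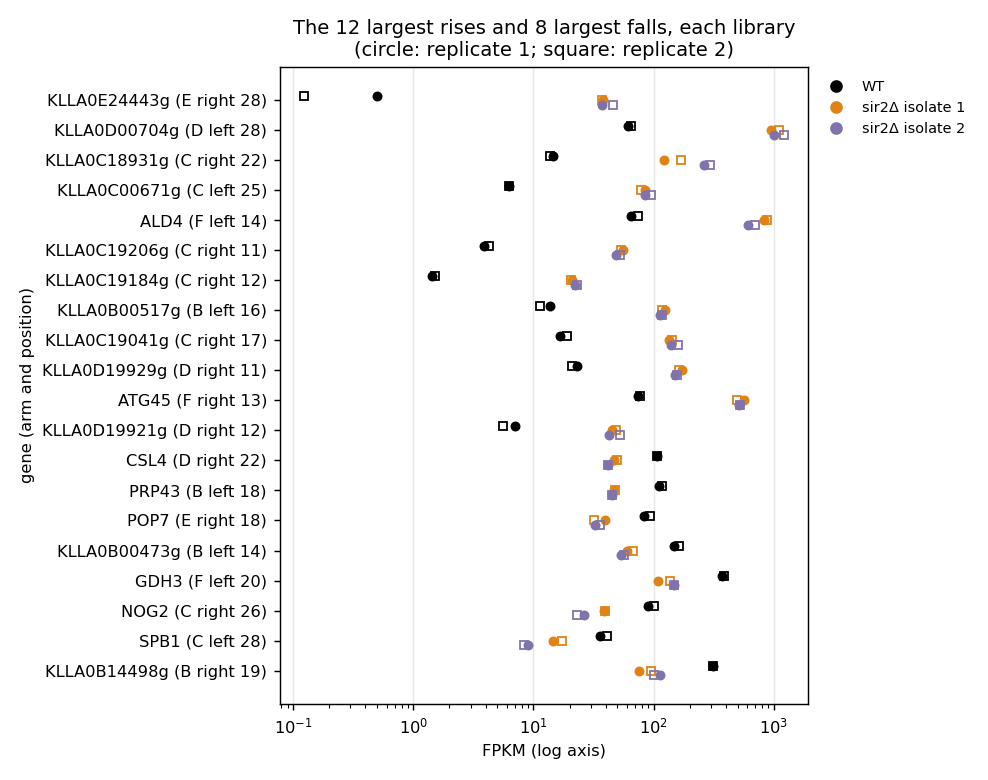
FPKM of the 12 largest rises and 8 largest falls in each of the 6 libraries on a log axis, with arm and position after the gene name (black, WT; orange, isolate 1; purple, isolate 2). In all 20 genes the 4 sir2Δ libraries lie on 1 side of both WT libraries, from KLLA0E24443g (0.122 and 0.503 FPKM in WT) to KLLA0B14498g (310 and 314 FPKM in WT).

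By arm, the counts of higher genes were 8 on C right, D left, D right and F left, 7 on E left and 6 on A left. They were 5 on C left, 4 on E right and F right, and 2 on A right, B left and B right. Each arm had 20 tested genes except B left (19), C left (16) and B right (15). Beside the 20.2% of all tested genes, the shares on E right and F right were near it. Those on A right, B left and B right were below it, and those on the other arms above it. The median log2 change of an arm ran from −0.24 on A right to 0.39 on C right. More genes were higher at positions 11 to 20 than at 21 to 30 on 7 arms, fewer on 3 (C left, E left and F left) and as many on 2. Among neighbouring tested genes of the zone, both were higher in 24 of 218 pairs (11%) and both lower in 15 (6.88%). Over all neighbouring tested genes the shares were 5.86% and 5.08%. Pairs called in opposite directions made up 5.96% in the zone, beside 6.28%. The zone's larger share of rises, 27.8% beside 20.2%, by itself raises the share of pairs both higher. Its part in that share was not tested. Runs of 3 or more held 21 of the 64 rises in 6 runs and 11 of the 45 falls in 3 runs. Such runs were not counted over all genes.

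Roles are those known from *S. cerevisiae* and were assigned by symbol, with values known. The groups are described by counts, beside 20.2% higher and 19.9% lower over all tested genes. Autophagy genes all rose: *ATG2*, *ATG4*, *ATG10*, *ATG32* and *ATG45*, on 4 chromosomes and at positions 13 to 28 (5 of 5, median log2 change 2.01). Of the 27 genes with an *ATG* symbol outside the zone, 13 were higher, 0 were lower (limma) and 14 were not called (median 0.48), so rises of this family were not limited to chromosome ends. In the group of genes for respiration and for carbon sources other than sugar, *GUT1*, *GUT2*, *PCK1*, *ALD4* and *SDH2* rose, while *COQ8* of ubiquinone synthesis (0.04) and *MIR1*, the mitochondrial phosphate carrier (0.46), were not called (5 of 7, median 1.28). The channel gene *FPS1* fell although both glycerol-use enzymes rose.

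Genes of ribosome assembly and RNA processing lay at the other extreme: 11 of 16 fell and 0 rose (median −1.0). The 11 falls stood on 5 of the 6 chromosomes, between positions 16 and 30. *SMB1* (−0.45), *YRA2* (−0.16), *YSF3* (−0.07), *SQS1* (0.01) and *JJJ1* (0.33) were not called. *SSU72*, which rose (0.50), was counted under transcription, so these counts depend on how roles were assigned. Genes of this role outside the zone were not counted. None of the 16 stands at positions 11 to 15, the band with the fewest falls, and the part of this in that share was not tested.

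Other roles were mixed. Amino acid and nitrogen genes had 3 higher (*CHA1*, *CAR1* and *DAL3*) and 3 lower (*HIS1*, *GDH3* and *URE2*) of 12. Ubiquitin, SUMO and proteasome genes had 4 higher (*UBA1*, *ECM29*, *UBI4* and *CDC26*) and 4 lower (*BRE5*, *ELA1*, *MET30* and *ULP2*) of 16. Among the falls, *ULP2* was not called with no filter (adjusted p = 0.0815), with libraries centred on their median (0.0554) or without the second library of isolate 1 (0.0715) or isolate 2 (0.0625). Transcription and chromatin genes had 3 of 14 in each direction. Of the 3 tested mating genes *KAR4* rose, while *STE6*, the a-factor exporter, was at 10.3 and 10.2 FPKM in WT and between 13.4 and 15.1 in sir2Δ (0.46, not called) and *KEX2*, the pro-alpha-factor protease, changed by 0.18 (not called). Of 4 peroxisome genes *PEX2* alone rose.

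**Figure D4:**
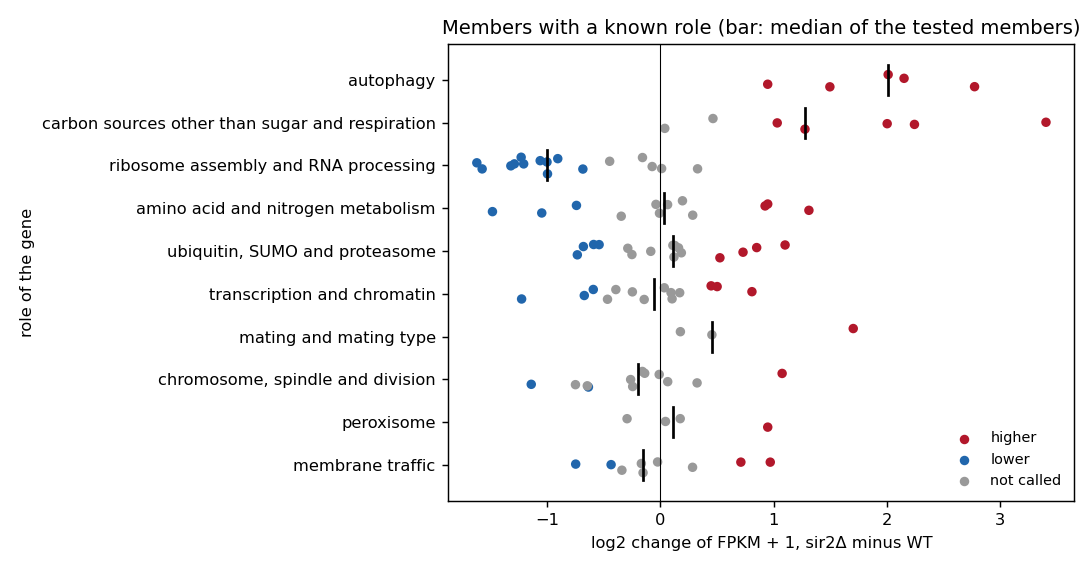
Log2 change (sir2Δ minus WT) of the genes at positions 11 to 30 with a known role, 1 point a gene, coloured by call, with a bar at the median of each role. The 5 autophagy genes lie between 0.95 and 2.78, and the 16 genes of ribosome assembly and RNA processing between −1.62 and 0.33.

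Rises were shared equally between genes with and without a symbol, although fewer lack one. Of the 71 tested genes of the zone that have none, 32 were higher (45.1%) and 6 lower (median 0.50). Of the 159 with one, 32 were higher (20.1%) and 39 lower (median −0.12). The same direction held over all tested genes, where 37.0% of those without a symbol and 15.6% of those with one were higher. Symbols thin out toward the ends: 53.4% of genes at positions 11 to 15 had one, 60% at 16 to 20, 75.0% at 21 to 25, 81.7% at 26 to 30 and 80% beyond position 30. The band at 11 to 15 thus had both the most unnamed genes and the most rises, while from 16 to 30 the unnamed share fell inward and the share of rises did not. The part of unnamed genes in these shares was not tested. By level, averaged over the 3 strains, 1 of the zone's 6 genes under 10 FPKM was higher (16.7%, beside 19.8% of all tested genes at that level). At higher levels, 27.0% of the zone's genes at 10 to 50 FPKM were higher (beside 18% of all tested genes at that level), 26.9% at 50 to 200 FPKM (beside 20.7%) and 33.3% above 200 FPKM (beside 23.7%). This level includes the sir2Δ values, so a rise moves a gene toward a higher level. By WT level alone, 13 of the zone's 18 tested genes under 10 FPKM were higher and 0 were lower. That share was not taken over all genes, and a choice by low WT level favours rises. The median WT level was 40.2 FPKM at positions 11 to 15, 65.3 at 16 to 20 and 51.8 over the whole zone, beside 58.6 over all genes.

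The most abundant RNAs of the zone were *RPL40A*, a ribosomal protein gene fused to ubiquitin, *FPR1* and KLLA0C18887g. *RPL40A* was at 4482 and 4513 FPKM in WT and between 3656 and 4281 in sir2Δ (−0.24, not called). Only KLLA0C18887g of these 3 was called.

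Other genes of silent chromatin and telomeres were matched by symbol across the genome. Of 49 names, 39 matched a gene, of which 4 were higher (10.3%), 10 lower (25.6%) and 25 not called (median −0.27). Over all 5021 tested genes 20.2% were higher, 19.9% lower and 3008 not called (median −0.06). None of the 4 rises, *HOS1* (0.82), *EST3* (0.65), *SUM1* (0.54) and *YKU80* (0.54), reached 2-fold. The falls of at least 2-fold were *ASF1*, a histone chaperone (−1.52), and *TBF1*, whose product binds telomeric repeats in *S. cerevisiae* (−1.22).

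The 2 isolates were compared over their technical libraries only. In the zone 23 genes were higher and 23 lower in isolate 2 than in isolate 1 (limma, adjusted p under 0.05), beside 7.89% and 10.8% of all tested genes. No gene of the zone differed 2-fold. KLLA0C18931g (0.95, SE 0.13) and *RIM101*, a transcription factor of the pH response (0.74, SE 0.12), were highest in isolate 2 relative to isolate 1, and *MRC1* of the replication checkpoint (−0.91, SE 0.11) and *SPB1* (−0.80, SE 0.11) lowest. *RIM101* was at 57.7 and 56.3 FPKM in WT, 40.7 and 54.6 in isolate 1 and 74.2 and 85.3 in isolate 2. Its isolates lay on opposite sides of WT, but isolate 1 did not pass against WT (limma on the 6 libraries, adjusted p = 0.0602). *MRC1* was at 17.9 and 18.3 FPKM in WT, 15.3 and 13.9 in isolate 1 and 7.73 and 6.86 in isolate 2. The changes of both isolates use the same WT values. The median change of the zone was 0.04 in isolate 1 and 0.07 in isolate 2, and that at positions 11 to 15 was 0.43 and 0.52.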

How the data were processed

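Per the labels' protocols, RNA was taken with hot phenol, treated with DNase, made into libraries with a kit that does not keep the strand, so antisense RNA is not separated, and read for 50 bp from 1 end. TopHat2 2.0.10 and Cuffnorm 2.2.1 are named in the submitters' processing notes. The authors deposited 1 FPKM value per gene and library; the sources used here do not give the build, annotation or scaling option. Cuffnorm can divide reads of near-identical genes between copies, and an exact 0 may be a failed estimate. None of the 238 genes overlaps another gene of the RefSeq table (ASM251v1), which gave symbols and order and matched all 5076 ids. No coordinates are printed.

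Fold changes are on the log2(FPKM + 1) scale and understate changes of low genes. After averaging the 2 technical libraries per strain, the WT mean was set against both isolate means using limma (version 3.58.1, under R 4.3.3), trend fitted, with 1 residual and 7.03 prior degrees of freedom, Benjamini-Hochberg over the 5021 genes averaging 1 FPKM or more, two-sided. Isolates were compared in a fit of 6 libraries in 3 groups, whose p-values measure technical spread. Called means adjusted p under 0.05. The fit was checked on simulated data. Alternatives were pseudocounts of 0.1 and 5, filters, scalings, library-level fits and leaving out each library. Genes were named by rule: the 12 largest rises and 8 largest falls, the largest and the innermost 2-fold rise of each arm, the 3 most abundant and the 2 largest isolate differences each way. Further examples were picked with their values known. The table gives no descriptions, so roles were assigned by symbol, likewise with values known. The members, bands and lists were chosen with earlier results of these data known.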

Additional observations from a re-analysis of the deposited data

Results flagged for a closer look

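Of the 36 genes named by the fixed rule, 9 differed between the isolates (isolate 2 minus isolate 1, log2 scale, limma on the 6 libraries, adjusted p under 0.05), so their change from WT is not 1 value for both. The differences were 0.95 for KLLA0C18931g, 0.74 for *RIM101*, 0.50 for *UBI4*, 0.33 for KLLA0B14498g, 0.32 for *ATG32*, −0.39 for *ALD4*, −0.64 for *NOG2*, −0.80 for *SPB1* and −0.91 for *MRC1*. In *RIM101* the difference from WT was −0.27 in isolate 1 and 0.47 in isolate 2. For the other 8 both isolates lay on the same side of WT. KLLA0C18931g, *NOG2*, *SPB1* and *MRC1* passed the threshold without any of the 6 libraries (highest adjusted p 0.0473, 0.039, 0.0403 and 0.0285). *RIM101* missed it without isolate 2 replicate 2 (0.0696). *ALD4* missed it in 4 of 6 cases, and *UBI4*, *ATG32* and KLLA0B14498g in 3 of 6 each, with highest adjusted p of 0.124, 0.344, 0.121 and 0.335. These p-values measure the spread of technical libraries, so a difference between the 2 cultures at harvest and one between the 2 strains cannot be told apart. Other genes mentioned above as examples also differed, among them *RPC31* (adjusted p = 0.000698), *ESF2* (0.0014) and *GUT1* (0.00161).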

How the results depend on the processing

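Counts of called genes in the zone stayed within 1.5 times of 64 higher and 45 lower in all alternatives but 2: with the 6 libraries in 2 genotype groups without a block 69 were lower, and with 3 strain groups 79. On B right, these fits and the one with a block called 7 genes higher in place of 2. Those fits take technical libraries as replicates. With the replicate block in 2 genotype groups, 82 were higher and 65 lower. In the blocked, unblocked and 3-group fits, 28.7%, 29.4% and 33.2% of all tested genes were higher and 33.4%, 34.7% and 40.4% lower. Technical numbers do not pair the samples (correlation of same-numbered deviations 0.00518, 0.0549 and 0.206). The share higher at positions 11 to 15 ran from 37.9% to 62.3% over the fits, with positions counted over all listed genes. It lay below this range with positions counted over tested genes. At positions 16 to 20 it was 33.3% in both 2-group fits and 36.8% with 3 strain groups, near those shares over all genes. The median log2 change, 0.06, was 0.0311 with no filter, 0.02 after quantile normalization, 0.0947 with libraries centred on their median, 0.0007 with positions counted over tested genes and between 0.0351 and 0.0887 without 1 library. Of the zone's called genes, 58.7% were higher in the main count but 51.4% with positions counted over tested genes. Over all tested genes 1013 were higher and 1000 lower, so the zone's excess of rises depends on how positions are counted. With no filter on low values 25 of the 109 calls were lost, F left had 4 rises in place of 8, and B left 1 in place of 2. On other arms, counts of rises moved by over 1.5 times on A right (1 in place of 2 after quantile normalization or with a minimum of 10 FPKM), on C right (13 in place of 8 with 3 strain groups), on F right (7 and 9 in place of 4 in the unblocked and 3-group fits) and, with positions counted over tested genes, on B left (1), D left (5) and D right (4). The cause was not tested. Without 1 library, 9 called genes lost their call at least once. The 46 differences between isolates became 11 to 40 without 1 library. The log2 change of *RIM101* ran from −0.0005 (without isolate 1 replicate 2) to 0.2069 without 1 library. Read depth is unknown, so counting error at low FPKM cannot be given.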
